A study of Mus musculus with 6 samples.

Results

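The cytokines and receptors of the interleukin-1 (IL-1) family were followed in mouse abdominal aortic smooth muscle cells (MASMCs) with and without smooth muscle Pdk4. They are 10 of the 41721 genes in the count table and were taken by their gene names, namely the cytokines Il1a, Il1b, Il18 and Il33, the antagonists Il1rn and Il18bp, and the receptor chains Il1r1, Il1rl1, Il1rl2 and Il1rap. RNA was sequenced from 6 cultures treated with Ang II, 3 labelled Pdk4fl/fl and 3 labelled Pdk4SMKO, and the comparison asks how the loss of PDK4, a kinase that inhibits the mitochondrial pyruvate dehydrogenase complex, changes the transcripts of these cells. The study's methods give the dose as 1 µM and the time as 48 h, in serum-starved cells of passages 4 to 8 from mice 10 weeks of age, while the labels name Ang II alone.

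Both genotypes carry the floxed Pdk4 allele, in which exons 4 to 6 lie between the recombination sites, and both received tamoxifen. Pdk4SMKO mice carry in addition Myh11-CreERT2, a Cre recombinase that tamoxifen activates in cells with an active smooth muscle myosin heavy chain promoter and whose transgene lies on the Y chromosome. Cells of the culture that never had an active Myh11 promoter would therefore keep Pdk4. The study calls its cultures biological replicates, without saying whether those of a genotype came from separate animals, so p-values measure the spread between these cultures, which may share an animal.

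IL-1 family cytokines are made as precursors and act as alarm signals when cells are damaged or inflammasomes are active. IL-1α and IL-1β bind IL-1R1, IL-33 binds ST2 (the product of Il1rl1) and the IL-36 cytokines bind the product of Il1rl2. Each of these receptors pairs with the shared accessory chain made from Il1rap, and signals through MyD88 and IRAK kinases to NF-κB. IL-18 uses a receptor pair of its own, and the antagonists made from Il1rn and Il18bp hold IL-1 and IL-18 in check. In the vessel wall the family is known for recruiting leukocytes and for driving matrix-degrading enzymes.

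The libraries held 16526044 to 22481670 counts in all. Levels are given as counts and as CPM, counts scaled to the library total multiplied by edgeR's TMM factor. The difference between genotypes is given as the log2 fold change of Pdk4SMKO over Pdk4fl/fl. The TMM factors were 0.784 to 0.838 in Pdk4fl/fl and 1.21 to 1.26 in Pdk4SMKO. Compared with library totals alone, they raise CPM in Pdk4fl/fl and lower it in Pdk4SMKO. Means, marker sums and overlap in CPM therefore rest on this scaling. SE stands for the standard error of the fitted value. A gene was called when the Benjamini-Hochberg adjusted p of edgeR's quasi-likelihood test was under 0.05 and the log2 fold change was at least 1 in either direction. This call fell on 59.3% of the 14085 genes tested (26.5% lower and 32.8% higher in Pdk4SMKO), and the median log2 fold change over all of them was 0.12. As the floor of detection served 3 counts, or 0.132 to 0.227 CPM. Pdk4 itself fell to 6.93 ± 2.11 from 35.0 ± 3.07 CPM (SD, n = 3 each). Xist, which is read from the inactive X chromosome of female cells, had 3 to 5 counts in Pdk4fl/fl and 321 to 610 in Pdk4SMKO. Yet a Y-linked transgene is carried by males, and the study states that its mice were male. An effect of PDK4 loss therefore cannot be told apart here from a difference in sex or origin of the cultures, which was not tested. The smooth muscle markers as a sum spanned 785 to 811 CPM in Pdk4fl/fl and 723 to 954 in Pdk4SMKO, with 4 of the 8 markers higher in Pdk4SMKO (Acta2, Myh11, Lmod1 and Des), 3 lower (Tagln, Cnn1 and Smtn) and Myocd not past the threshold. Myh11, whose promoter drives the Cre, had 8 to 10 counts in Pdk4fl/fl and 44 to 62 in Pdk4SMKO.

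Of the 10 genes, 8 passed the filter on low counts. Among these Il33, Il1r1, Il1rl2 and Il18 were higher and Il1rl1 was lower in Pdk4SMKO, while Il1rn, Il1rap and Il18bp did not pass the threshold. The 5 calls of 8 tested genes are a share close to the 59.3% over all genes. In CPM the genotypes did not overlap for 4 of the 8 tested (Il33, Il1r1 and Il1rl2 higher, Il1rl1 lower), against 81.8% of all genes tested (43.5% higher and 38.3% lower). The median log2 fold change of the 8 was 0.99, also with Il1rl2 set at its bound.

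**Figure D1:**
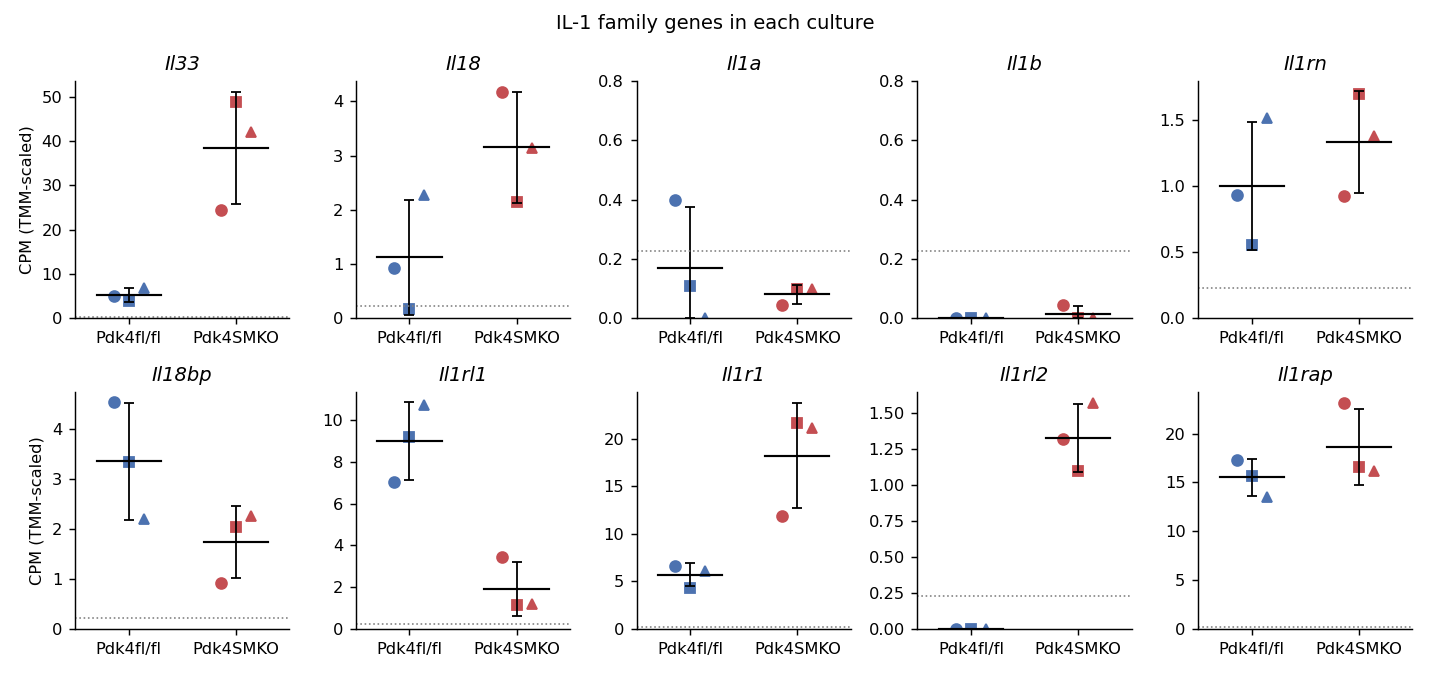
CPM of the 10 genes in each library, with circles, squares and triangles for replicates 1, 2 and 3 of each genotype and bars for the mean ± SD (n = 3, lower ends drawn no lower than 0). The dotted line is the highest CPM that 3 counts stand for (0.227), and the Pdk4SMKO libraries lie above all Pdk4fl/fl libraries for Il33, Il1r1 and Il1rl2 and below them for Il1rl1.

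The upstream sequences of Il33 and of Il1rl1, its receptor gene, are shown because this ligand and receptor pair moved in opposite directions, and those of Il1a and Il1b because both cytokine genes were all but silent. Each is the 250 bases before a RefSeq transcript start on GRCm38.p6, 5′ to 3′ on the strand of the gene. Il33 and Il1rl1 have a pair of annotated starts each. Capitals mark matches to the motifs searched. The Il33 windows are chr19:29924863-29925112 and chr19:29945540-29945789 (plus strand), those of Il1rl1 are chr1:40429320-40429569 and chr1:40439379-40439628 (plus strand), and those of Il1a and Il1b are chr2:129309973-129310222 and chr2:129371140-129371389 (minus strand).
Il33 upstream start: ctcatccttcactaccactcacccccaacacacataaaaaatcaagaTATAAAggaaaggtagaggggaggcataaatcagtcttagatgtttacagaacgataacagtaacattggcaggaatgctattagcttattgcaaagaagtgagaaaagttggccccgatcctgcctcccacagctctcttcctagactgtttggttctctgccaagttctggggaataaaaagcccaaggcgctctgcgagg
Il33 downstream start: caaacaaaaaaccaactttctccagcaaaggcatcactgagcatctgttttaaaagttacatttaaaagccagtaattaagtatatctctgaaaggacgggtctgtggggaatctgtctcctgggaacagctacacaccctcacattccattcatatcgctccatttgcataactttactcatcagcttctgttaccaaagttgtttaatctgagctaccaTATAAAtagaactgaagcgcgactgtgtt
Il1rl1 upstream start: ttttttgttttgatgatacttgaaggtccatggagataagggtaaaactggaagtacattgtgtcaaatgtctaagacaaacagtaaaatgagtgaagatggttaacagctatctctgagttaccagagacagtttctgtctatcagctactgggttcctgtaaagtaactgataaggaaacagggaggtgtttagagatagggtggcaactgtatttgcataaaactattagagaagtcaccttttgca
Il1rl1 downstream start: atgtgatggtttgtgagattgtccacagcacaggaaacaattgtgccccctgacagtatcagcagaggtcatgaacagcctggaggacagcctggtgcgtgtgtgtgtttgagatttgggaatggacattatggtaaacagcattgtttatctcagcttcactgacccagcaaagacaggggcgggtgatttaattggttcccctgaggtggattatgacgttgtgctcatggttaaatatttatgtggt
Il1a: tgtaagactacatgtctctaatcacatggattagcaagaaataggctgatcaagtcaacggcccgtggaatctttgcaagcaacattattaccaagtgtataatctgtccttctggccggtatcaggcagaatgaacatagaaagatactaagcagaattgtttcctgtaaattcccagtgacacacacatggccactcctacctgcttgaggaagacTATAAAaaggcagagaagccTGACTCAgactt
Il1b: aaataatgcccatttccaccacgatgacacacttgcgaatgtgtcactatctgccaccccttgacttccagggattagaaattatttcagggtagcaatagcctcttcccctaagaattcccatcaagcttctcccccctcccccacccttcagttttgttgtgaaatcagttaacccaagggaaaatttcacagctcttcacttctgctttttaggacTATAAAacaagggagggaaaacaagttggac

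All 10 genes matched RefSeq, with 15 such windows. Both strands were searched for 6 motifs. The motif of the stress-responsive factor AP-1 was taken as TGANTCA. The motifs of NF-kappaB, the STAT factors and serum response factor (the CArG box) were also searched. The E-box, bound by basic helix-loop-helix factors, was taken as CACGTG. The core of the TATA box, which positions the start of transcription, was taken as TATAAA. No match overlapped another, and none of the 15 windows held the STAT motif, the E-box or the CArG box (7.02%, 6.02% and 1.47% of all windows). TATAAA was found in 6 of the 15 windows, against 12.4% of all 32851 windows of the same length. In Il1a, Il1b and the downstream start of Il33 it stood 32, 31 and 29 bases before the start. A match on the coding strand whose first base is 40 to 20 bases before the start was present in 1.99% of all windows, and this position was chosen after the matches were seen. The 3 genes that share it differed in level, since Il33 reached 24.3 to 48.8 CPM in Pdk4SMKO while Il1a and Il1b stayed at or near 0. TGANTCA was found once in Il1a, 12 bases before the start, and once in Il1rn (6.75% of all windows), and the NF-kappaB motif once each in Il1rn and Il1rap (17.6% of all windows). Of the 4 windows of Il33 and Il1rl1, those of Il1rl1 held none of the 6 motifs. A match describes the letters of these windows alone, and which start the cells used cannot be read from counts per gene.

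Il33 was the cytokine of the family with the most reads. It encodes IL-33, a nuclear cytokine that damaged stromal cells release. Il33 (MGP_C57BL6NJ_G0025446, chromosome 19 from 29190848 to 29228368, plus strand) had 76, 69 and 91 counts in the Pdk4fl/fl libraries and 554, 980 and 856 in the Pdk4SMKO libraries. All 3 Pdk4SMKO cultures lay above every Pdk4fl/fl culture, and Pdk4SMKO replicate 1 was the lowest of its genotype. The means were 5.25 ± 1.56 and 38.4 ± 12.6 CPM (SD, n = 3 each), 7.31 times higher in Pdk4SMKO. The log2 fold change was 2.88 (SE 0.30, adjusted p = 9e-06 by edgeR). Fits without any 1 of the 6 libraries gave 2.68 to 3.14.

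Il1rl1, the gene of the IL-33 receptor ST2, moved the other way. Il1rl1 (MGP_C57BL6NJ_G0016358, chromosome 1 from 40833047 to 40872838, plus strand) had 106, 168 and 142 counts in Pdk4fl/fl and 78, 23 and 24 in Pdk4SMKO. Every Pdk4SMKO culture lay below every Pdk4fl/fl culture, with replicate 1 the highest of its genotype at 3.42 CPM against 1.14 and 1.18. The mean fell from 9.01 ± 1.85 to 1.92 ± 1.31 CPM (SD, n = 3 each), or to 21.3% of the Pdk4fl/fl level. The log2 fold change was -2.21 (SE 0.41, adjusted p = 0.000583 by edgeR), and -2.94 without Pdk4SMKO replicate 1. The gene gives rise to a membrane receptor and to soluble ST2, a decoy for IL-33, and counts per gene do not separate them.

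The balance of ligand to receptor was also taken within each library, as a ratio of counts per kilobase of transcript, which no scaling between libraries can move. The ratio of Il33 to Il1rl1 was 1.71, 0.981 and 1.53 in the Pdk4fl/fl libraries and 17.0, 102 and 85.2 in the Pdk4SMKO libraries. The lowest Pdk4SMKO ratio, that of replicate 1, was above every Pdk4fl/fl ratio, and the genotypes differed by 5.27 on the log2 scale, or 38.5-fold. Since Il33 was higher and Il1rl1 lower in every Pdk4SMKO library, the ratios had to separate, and this adds no further support. In an exact two-sided permutation test p was 0.1 (also after adjustment over the 4 ratios tested). That is the smallest p that 3 libraries against 3 allow, and it was fixed by the same separation. Without Pdk4SMKO replicate 1 the difference was 6.09 on the log2 scale.

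The transcripts of the classical IL-1 cytokines were near or under the floor in both genotypes. Il1a, the gene of the alarm cytokine IL-1α (MGP_C57BL6NJ_G0026908, chromosome 2 from 136833122 to 136843324, minus strand), had 6, 2 and 0 counts in Pdk4fl/fl and 1, 2 and 2 in Pdk4SMKO. Il1b, the gene of IL-1β (MGP_C57BL6NJ_G0026909, chromosome 2 from 136904604 to 136911167, minus strand), had 1 count in Pdk4SMKO replicate 1 and 0 in the other 5 libraries. Neither gene passed the filter, so a difference was not detectable at this depth. A count of 0 allows a level of up to 0.132 to 0.227 CPM, depending on the library, and covers counting error only. The span of Il1a overlaps that of the antisense gene Gm14023, which had 0 to 10 counts, and that of Il1b overlaps Il1bos, which had 0 in all 6 libraries. Whether reads were counted by strand is not given in the sources used here.

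Il18 encodes IL-18, which like IL-1β is made active by caspase-1. Its counts were few and uneven. Il18 (MGP_C57BL6NJ_G0035273, chromosome 9 from 50847186 to 50857771, plus strand) had 14, 3 and 30 counts in Pdk4fl/fl and 95, 43 and 64 in Pdk4SMKO. The highest Pdk4fl/fl culture, at 2.27 CPM, lay above the lowest Pdk4SMKO culture, at 2.14 CPM, although the unscaled counts did not overlap. With a log2 fold change of 1.55 (SE 0.64) and an adjusted p of 0.0453 by edgeR, Il18 was just past the threshold. The call was lost without Pdk4fl/fl replicate 1 (log2 fold change 1.47), Pdk4fl/fl replicate 2 (1.01), Pdk4SMKO replicate 1 (1.31) or Pdk4SMKO replicate 3 (1.55), and the fold change was 2.56 without Pdk4fl/fl replicate 3. The exact two-sided permutation test gave p = 0.2.

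The antagonists did not pass the threshold. Il18bp, the gene of the secreted IL-18 binding protein (MGP_C57BL6NJ_G0033080, chromosome 7 from 109007344 to 109010420, minus strand), had 68, 61 and 29 counts in Pdk4fl/fl and 21, 41 and 46 in Pdk4SMKO. Pdk4SMKO replicate 3, at 2.26 CPM, was just above Pdk4fl/fl replicate 3, at 2.19 CPM, so the genotypes overlapped by this pair alone. The log2 fold change of -0.96 (SE 0.41, adjusted p = 0.0521 by edgeR) lay close to the threshold for both p and fold. It was past the threshold without Pdk4fl/fl replicate 3 (-1.19) or Pdk4SMKO replicate 3 (-1.18), and in limma's voom fit (-1.03). It was -0.64 without Pdk4SMKO replicate 1, -0.69 without Pdk4fl/fl replicate 1 and -0.37 with library totals alone as the scaling.

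Il1rn, the gene of the IL-1 receptor antagonist (MGP_C57BL6NJ_G0025825, chromosome 2 from 22844313 to 22858893, plus strand), had 14, 10 and 20 counts in Pdk4fl/fl and 21, 34 and 28 in Pdk4SMKO. In CPM the libraries of the genotypes overlapped, at 0.549 to 1.51 and 0.922 to 1.69, although the unscaled counts did not. The log2 fold change was 0.44 (SE 0.45, adjusted p = 0.391 by edgeR), and 1.04 with library totals alone (adjusted p = 0.0515 by edgeR). Secreted and intracellular forms of the antagonist cannot be separated in counts per gene.

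The signalling receptor for IL-1 itself was higher in Pdk4SMKO. Il1r1 (MGP_C57BL6NJ_G0016356, chromosome 1 from 40612725 to 40709659, plus strand) had 100, 79 and 80 counts in Pdk4fl/fl and 270, 436 and 432 in Pdk4SMKO. The genotypes did not overlap, and the lowest Pdk4SMKO culture was again replicate 1, at 11.9 CPM against 21.7 and 21.2. The means were 5.69 ± 1.21 and 18.2 ± 5.54 CPM (SD, n = 3 each), 3.21 times higher in Pdk4SMKO. The log2 fold change was 1.69 (SE 0.27, adjusted p = 0.000217 by edgeR) and ranged from 1.53 to 1.93 when any 1 library was dropped.

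Il1rl2, the gene of the IL-36 receptor (MGP_C57BL6NJ_G0016357, chromosome 1 from 40716932 to 40760767, plus strand), was detected in Pdk4SMKO alone. It had 0 counts in all 3 Pdk4fl/fl libraries and 30, 22 and 32 in the Pdk4SMKO libraries. At 1.33 ± 0.238 CPM (SD, n = 3) in Pdk4SMKO it was at least 6.73-fold higher than the floor of 3 counts per library in Pdk4fl/fl. The adjusted p was 8.6e-05 in edgeR's quasi-likelihood test, but the gene passed the filter only through the Pdk4SMKO libraries. A pseudogene within its span had at most 1 count.

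Il1rap, the accessory chain that all of these receptors need, had the most reads of the 10 genes in Pdk4fl/fl. Il1rap (MGP_C57BL6NJ_G0023112, chromosome 16 from 24848850 to 24991859, plus strand) had 259, 286 and 179 counts in Pdk4fl/fl and 527, 333 and 330 in Pdk4SMKO. After TMM scaling the genotypes overlapped, at 13.5 to 17.3 and 16.2 to 23.1 CPM, although the unscaled counts did not. The log2 fold change was 0.26 (SE 0.19, adjusted p = 0.213 by edgeR). It was 0.87 when libraries were scaled by their totals alone (adjusted p = 0.00236, edgeR), which was still under 2-fold.

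**Figure D2:**
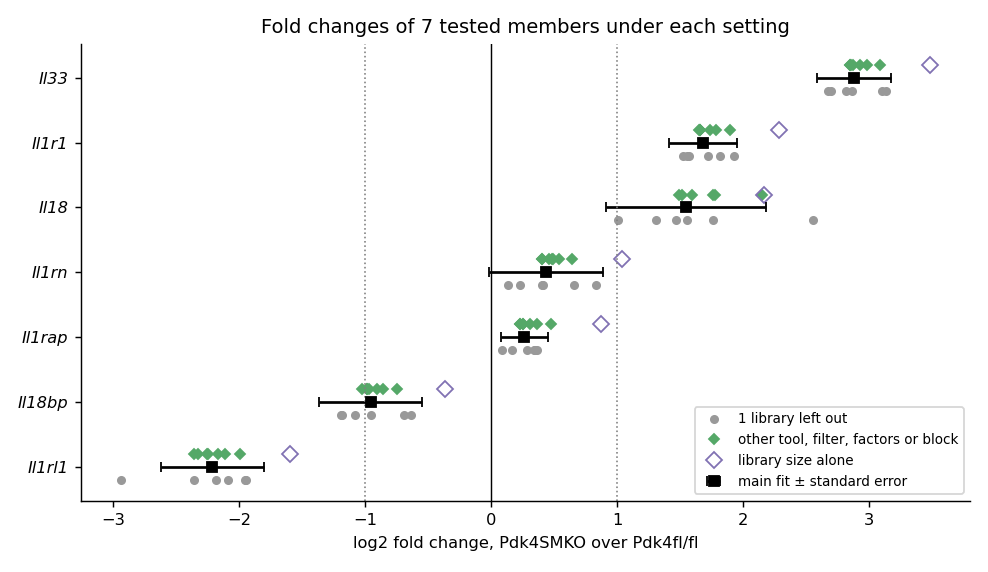
Log2 fold changes (Pdk4SMKO over Pdk4fl/fl) of 7 tested genes, as black squares with the standard error, with each library left out (grey), with other tools, filters, factors or the replicate block (green) and with library totals alone (open diamonds). Dotted lines mark 2-fold. Il1rl2 is left out, since its fold change is a bound. No gene changed direction under these settings. Il18bp and Il1rn have settings on either side of a 2-fold line, and Il18 reaches down to 1.01.

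Per kilobase of transcript, the order of the mean levels differed between the genotypes. In Pdk4fl/fl it ran from Il18bp (2.40 CPM per kilobase) over Il33 (1.82), Il18 (1.57), Il1rap (1.36), Il1rl1 (1.31) and Il1r1 (0.891) to Il1rn (0.180), with Il1rl2, Il1a and Il1b at or near 0. In Pdk4SMKO, Il33 led with 13.3 CPM per kilobase, followed by Il18 (4.41), Il1r1 (2.86), Il1rap (1.64), Il18bp (1.24), Il1rl1 (0.278), Il1rn (0.240) and Il1rl2 (0.195). Neighbours in the Pdk4fl/fl order from Il18bp to Il1r1 had overlapping libraries, as did those in Pdk4SMKO from Il18 to Il18bp and from Il1rl1 to Il1rl2.

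The receptor balance within libraries differed along with the levels. Counts per kilobase of Il1rap relative to Il1r1 were 1.45, 2.03 and 1.26 in Pdk4fl/fl and 1.10, 0.429 and 0.429 in Pdk4SMKO, a difference of -1.40 on the log2 scale. Those of Il1rl1 relative to Il1rap were 0.674, 0.968 and 1.31 against 0.244, 0.114 and 0.120, a difference of -2.67. Per kilobase, the accessory chain was above the IL-1 receptor in all 3 Pdk4fl/fl libraries and below it in Pdk4SMKO replicates 2 and 3. The antagonist Il1rn relative to Il1r1 was 0.161, 0.146 and 0.288 against 0.0897, 0.0899 and 0.0747, a difference of -1.16. For each of these ratios the genotypes did not overlap and the exact two-sided permutation test gave p = 0.1, the smallest it can give. Among single genes, 81.8% of all tested did not overlap either. The share over other pairs of genes was not taken, so the separation is not particular to these pairs. The ratio of Il18bp to Il18 was not formed, since Il18 had only 3 counts in Pdk4fl/fl replicate 2.

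**Figure D3:**
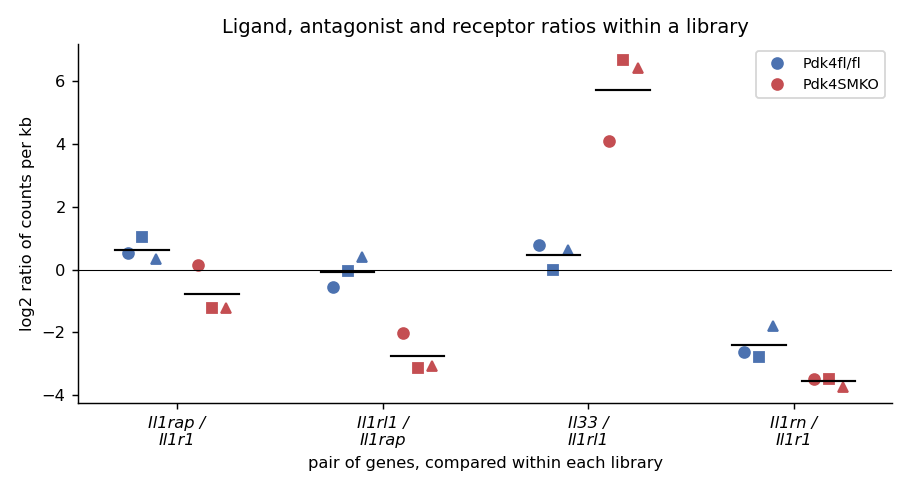
Ratios of counts per kilobase between pairs of IL-1 family genes in each library (log2 scale), with circles, squares and triangles for replicates 1, 2 and 3 and bars for the mean. The ratio of Il33 to Il1rl1 is higher and the other 3 are lower in every Pdk4SMKO library than in any Pdk4fl/fl library.

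Il1r1, Il1rl2 and Il1rl1 lie side by side in a receptor cluster on chromosome 1 that runs over 514 kb from Il1r2 to Il18rap, all on the plus strand. Along it the direction was not the same for all genes. Il1r2, which encodes the decoy receptor for IL-1, had 6, 12 and 9 counts in Pdk4fl/fl and 0, 0 and 3 in Pdk4SMKO, at least 4.06-fold lower against the floor. It did not pass the filter, and in a fit without the filter its adjusted p was 0.00326 (edgeR). That fit gave smaller adjusted p-values than the main fit for all called IL-1 family genes. For Il18 they were 0.00174 and 0.0453 (edgeR), so p-values of these fits are not on the same scale. Next came Il1r1 and Il1rl2, both higher, and then Il1rl1, lower.

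The last pair of the cluster forms the IL-18 receptor. Il18r1, its ligand-binding chain, had 0 counts in every Pdk4fl/fl library and 1, 2 and 1 in the Pdk4SMKO libraries, at or under the floor throughout. Il18rap, its accessory chain, had 12, 8 and 11 counts in Pdk4fl/fl and 211, 59 and 63 in Pdk4SMKO. The genotypes did not overlap for Il18rap, and Pdk4SMKO replicate 1 stood far above the other two. Its log2 fold change was 2.90 (SE 0.54, adjusted p = 0.000626 by edgeR), and 2.15 without Pdk4SMKO replicate 1. Of the remaining family genes, Sigirr had 0 to 4 counts per library, and Il1rapl1, Il1rapl2, Il1f10, Il36a, Il36b, Il36g and Il36rn had at most 2.

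**Figure D4:**
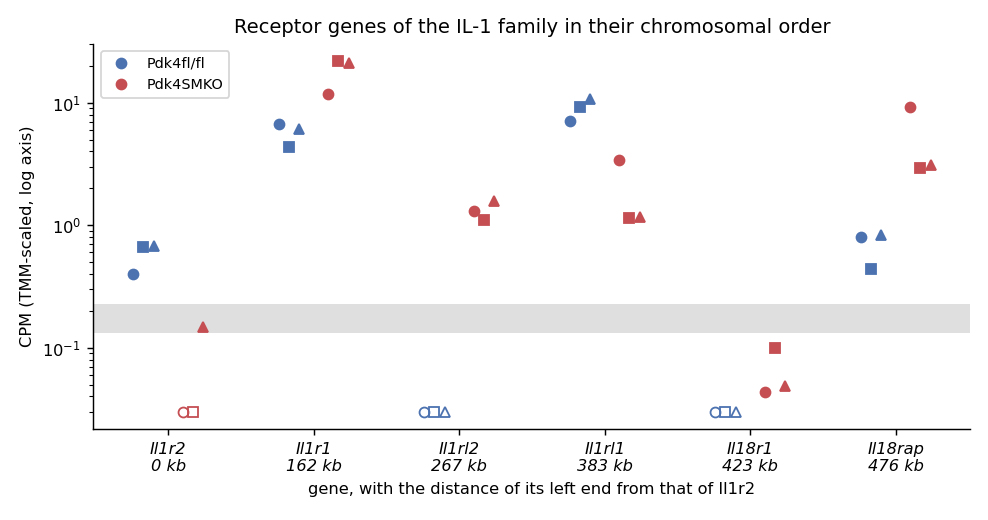
CPM (log axis) of the 6 receptor genes of the chromosome 1 cluster in their order, with the distance of each gene from Il1r2, and circles, squares and triangles for replicates 1, 2 and 3. Open symbols at the bottom stand for 0 counts, and the grey band is the range of CPM that 3 counts stand for. The Pdk4SMKO libraries lie below Pdk4fl/fl for Il1r2 and Il1rl1 and above for Il1r1, Il1rl2 and Il18rap, while Il18r1 stayed at or under the band.

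The machinery that processes and releases these cytokines was mixed in level. Of 16 listed genes, 9 were tested, of which 1 was lower and 5 were higher in Pdk4SMKO, and their median log2 value was 1.10. The calls are 66.7% of those tested, against 59.3% of all genes (26.5% lower and 32.8% higher). With library totals alone as the scaling, 1 was lower and 7 were higher. Casp4, the sensor of intracellular lipopolysaccharide that cleaves gasdermin D, fell from 1445, 2117 and 1801 counts in Pdk4fl/fl to 288, 291 and 308 in Pdk4SMKO (log2 fold change -3.05, adjusted p = 9.7e-08, edgeR). The genes that rose were Capn1 (2.44) and Capn2 (1.11), calpains of the kind that cleave the IL-1α precursor, Gsdme (1.71), a pore-forming gasdermin, Ninj1 (1.57), which ruptures the membrane of dying cells, and Casp8 (1.10), whose call was lost without Pdk4fl/fl replicate 1 (0.98). Gsdmd (0.88), the pore-forming gasdermin of inflammasome signalling, was not past the 2-fold threshold. Casp1, the IL-1β and IL-18 convertase, had 0 to 5 counts per library, and with Nlrp3, Nlrp1b, Nlrc4, Aim2, Mefv and Pycard it did not pass the filter. Among these, the inflammasome sensors Aim2 (19, 11 and 15 counts in Pdk4fl/fl, 3, 3 and 0 in Pdk4SMKO) and Nlrp3 (14, 18 and 5, and 5, 3 and 0) lay lower in Pdk4SMKO without overlap in CPM. For Nlrp3 the counts met at 5, in Pdk4fl/fl replicate 3 and Pdk4SMKO replicate 1. Its gap there (0.378 against 0.220 CPM) rests on the scaling. Aim2 was at least 7.02-fold lower against the floor. In edgeR's fit without the filter the adjusted p was 0.000255 for Aim2 and 0.00499 for Nlrp3, not to be set beside those of the main fit.

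All 22 listed transducers of the IL-1 receptor were tested, 7 lower and 6 higher, and their median log2 value was -0.32. The calls are 59.1% of the list, close to the 59.3% over all genes tested. At the receptor, Myd88, the adaptor, was higher at 35.0 ± 2.87 against 13.9 ± 0.988 CPM (SD, n = 3 each), as were Irak4 (log2 fold change 3.39), the first kinase to bind it, and Irak3 (3.75), a brake on this pathway. Tollip, an inhibitory adaptor, was lower, at 60.1 ± 0.687 against 746 ± 43.6 CPM (SD, n = 3 each). Further down, Ikbkg (2.65) and Tab1 (1.73), scaffolds of the kinase complexes, and the kinase Map3k3 (1.12) were higher. Rela (-3.40), the NF-κB subunit p65, and Nfkbia (-3.22), its inhibitor and target gene, were lower, as were Ube2v1 (-1.27), Peli2 (-1.24), Ube2n (-1.06) and Chuk (-1.03). The calls of Ube2n and Chuk were lost without Pdk4fl/fl replicate 3 (-0.98) and without Pdk4SMKO replicate 2 (-0.94), respectively. With library totals alone as the scaling, the list held 3 lower and 9 higher genes and its median was 0.29.

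Of 28 listed genes known to respond to IL-1, 24 were tested, and 13 were lower and 8 higher in Pdk4SMKO, and their median log2 value was -1.43. The calls are 87.5% of those tested, against 59.3% of all genes (26.5% lower and 32.8% higher). With library totals alone as the scaling, 10 were lower and 8 higher, and the median was -0.83. The chemokine genes that passed were all lower, among them Cxcl2, which had 194, 279 and 164 counts in Pdk4fl/fl but 3, 3 and 2 in Pdk4SMKO (at least 95.0-fold lower), Cxcl5 (-4.08), Cxcl1 (-2.19), Ccl2 (-1.93) and Ccl20 (-2.22). The call of Ccl20 was lost without Pdk4fl/fl replicate 2 (-2.11), Pdk4SMKO replicate 2 (-1.70) or Pdk4SMKO replicate 3 (-1.75), and its log2 fold change was -4.73 without Pdk4SMKO replicate 1. Csf2 (-5.90), Saa3 (-4.29), Mmp9 (-4.02), the NF-κB brake Tnfaip3 (-3.35), Icam1 (-2.37), Has1 (-1.73), Cebpb (-1.46) and Ptgs2 (-1.40) were lower as well. The higher genes were Lcn2 (5.17), the matrix metalloproteinases Mmp3 (4.83) and Mmp13 (2.65), the cytokine Lif (2.65), Pdpn (1.95), Cebpd, Il6 (1.04) and Ptges, which had at most 2 counts in Pdk4fl/fl and was at least 8.71-fold higher. Mmp3 had 122 to 484 counts in Pdk4fl/fl and 10638 to 11450 in Pdk4SMKO. Il6 lost its call in 3 of the 6 fits with a library left out. Ccl7 (-0.54), Vcam1 (0.32) and Zc3h12a (0.09) did not pass the threshold.

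**Figure D5:**
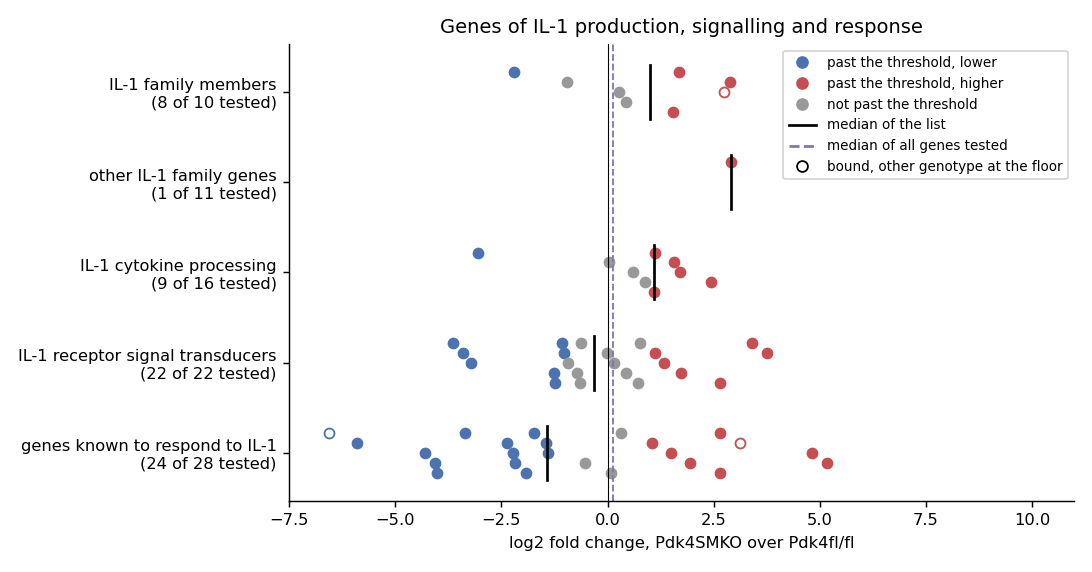
Log2 fold changes (Pdk4SMKO over Pdk4fl/fl) of the tested genes of each list, 1 point per gene, coloured by whether the gene passed the threshold. Open points are bounds for genes at the floor in a genotype, black bars are list medians and the dashed line is the median of all genes tested (0.12). The IL-1 responders spread on both sides, with 13 lower and 8 higher.

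In bulk RNA, fewer cells of a type and less RNA per cell cannot be told apart, so the markers of other cells that make or sense IL-1 family cytokines were summed in each library. Fibroblast markers summed to 153 to 188 CPM in Pdk4fl/fl and to 1563, 3176 and 3053 CPM in Pdk4SMKO replicates 1, 2 and 3. Of 8 genes, 4 were higher (Col14a1, Ly6a, Lum and Dcn) and 1 was lower (Dpt). Most of the rise was Col14a1, with means of 25.2 CPM in Pdk4fl/fl and 1740 in Pdk4SMKO. Pdgfra (0.35), Pi16 (-0.34) and Scara5 (-1.36) were not past the threshold, and Scara5 lay lower without overlap. Mesothelial markers summed to 74.2 to 100 CPM in Pdk4fl/fl and to 1325, 723 and 829 CPM in the same Pdk4SMKO replicates, with 7 of 7 tested genes higher. Fibroblast markers and Il33, Il1r1, Il1rn and Il18bp shared their lowest Pdk4SMKO library, replicate 1. A shared rank among 3 libraries does not single out a cell type. Mesothelial markers and Il1rl1, Il18, Il1rap and Il18rap shared their highest, also replicate 1. The same replicate had the highest Pdk4SMKO sum of macrophage (38.6 CPM), endothelial (6.72) and smooth muscle (954) markers, so this rank does not single out a cell type. Between genotypes, Il1rl1 was lower in Pdk4SMKO while mesothelial markers were higher. The part of such cells in these results was not tested.

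Macrophage markers summed to 21.4 to 38.2 CPM in Pdk4fl/fl, nearly all of it Cd68, and to 38.6, 18.2 and 12.2 CPM in Pdk4SMKO. Of 10 listed genes, 6 were higher, 1 (Cd68) was lower, and Adgre1, C1qa, C1qb, Tyrobp and Mrc1 had 0 counts in every Pdk4fl/fl library, with their highest values in Pdk4SMKO replicate 1. Itgam had 0 counts in all 6 libraries. Of the mast cell markers, which matter for ST2, Kit and Hdc were lower in Pdk4SMKO, and Tpsb2, Cma1 and Fcer1a had 0 counts in all 6 libraries. The mast cell markers summed to 73.4 to 103 CPM in Pdk4fl/fl and 12.0 to 15.5 in Pdk4SMKO. Most of this was Kit (68.4 to 94.5 and 11.7 to 15.4 CPM), and Cpa3, Mcpt4 and Ms4a2 had 0 to 6 counts per library. Endothelial markers summed to 16.0 to 24.9 CPM in Pdk4fl/fl and 3.33 to 6.72 in Pdk4SMKO, with Cdh5, Tie1 and Emcn at 0 to 2 counts. Keratinocyte and epithelial markers, cells known for Il1rl2, summed to 2.80 to 4.47 and 50.1 to 110 CPM, which came mostly from Cdh1. Of these 8 genes only Cdh1 and Trp63 were tested, and both were higher, Trp63 with 2, 2 and 0 counts in Pdk4fl/fl and 19, 79 and 34 in Pdk4SMKO. Krt14 (4, 7 and 8 counts, and 2, 1 and 0) and Grhl2 (13, 19 and 6, and 0, 4 and 1) lay lower in Pdk4SMKO without overlap, and Epcam, Esrp1, Krt5 and Cldn4 had 0 to 4 counts. The part of these cells was likewise not tested.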

How the data were processed

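RNA of 6 MASMC cultures (3 per genotype) was sequenced as paired-end reads; the methods name the NEBNext Ultra kit and the labels SMARTER. The authors deposited whole-number counts of reads per gene in 1 table, without normalization. The submitters' processing notes name GRCm39, whereas all but 625 of the gene identifiers, and the gene coordinates given here, are those of Ensembl's C57BL/6NJ strain annotation. The aligner, the counter and the use of strand are not given in the sources used here. Promoter windows are RefSeq's on GRCm38.p6 and were matched by symbol.

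Counts were filtered with filterByExpr, scaled by TMM and tested on genotype with edgeR's quasi-likelihood test, and p-values of the 14085 genes tested were adjusted by Benjamini-Hochberg. R 4.3.3, edgeR 4.0.16, limma 3.58.1, DESeq2 1.42.0, Python 3.11.15 and scipy 1.17.1 were used. Depth was 16526044 to 22481670 counts per library. A genotype whose libraries all held 3 counts or fewer gives a bound on the fold, taken against 3 counts per library and covering counting error only. In simulated counts with 4-fold changes, edgeR recovered 183 of the 193 changed genes tested and called 10 unchanged genes among 13830 tested. Only 200 genes were changed there, equally up and down, whereas 59.3% of genes were called in the data. The simulation therefore does not give the error rate of the calls reported here.

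Named were Pdk4, the 10 genes, the genes of the IL-1 and marker lists, the nearest tested and any overlapping gene of each member, and Il1r2 to Il18rap; Xist was named because its counts bear on the labels. Members and lists were chosen with earlier results of these data known. The rule also asked for the genes from Il1a to Il1rn, which lie 114 Mb apart here, so only Il1a to Il1b was read. Some listed genes are not reported here by name. Nfkbiz and Sod2 have no named gene in the table, and Cebpd was found by its description. Alternatives were RLE and upper-quartile factors, library totals, DESeq2, limma voom, other filters and thresholds, the replicate block and leaving out each library.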

Additional observations from a re-analysis of the deposited data

How the results depend on the processing

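Of 110 recomputed fold changes of the 8 tested IL-1 family genes, 103 kept their side of the threshold and none changed direction; the other 7 are those of Il18 and Il18bp given above. The 28 recomputed ratios kept their direction. With library totals alone as the scaling, 2390 genes were lower and 6184 higher, against 3733 and 4616, and the median log2 fold change of all genes moved by 0.60 (0.21 with upper-quartile factors). The number of IL-1 family genes called lower was 2 in limma's voom fit, and 1 to 2 with each library left out, the second gene being Il18bp each time. The number called higher was 2 when at least 10 counts were required in every library, since Il18 and Il1rl2 were then not tested, 3 when an adjusted p under 0.01 was required, and 3 to 4 with each library left out. Depth limits Il1a, Il1b, Il18 and Il1rl2 most, since each had 3 counts or fewer in at least 1 Pdk4fl/fl library. With the genotype mean of each gene subtracted from log2 CPM, libraries with the same replicate number correlated at 0.048, 0.095 and 0.234. Those with different numbers correlated at -0.188 to 0.072. These values do not settle whether the numbers pair cultures, and the main fit took the cultures as unpaired. The fit with the replicate block called 3704 genes lower and 4577 higher, and 1 and 4 of the IL-1 family genes. The cause of the other changes was not tested.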

Other observations

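Values of the tested genes nearest to the IL-1 family genes on their chromosomes follow, as log2 fold changes of Pdk4SMKO over Pdk4fl/fl. Uhrf2, the next tested gene after Il33, fell from 479 ± 30.7 to 99.6 ± 8.75 CPM (SD, n = 3 each; log2 fold change -2.27), and Ranbp6 on its other side had a log2 fold change of 0.42, which was not past the threshold. Cldn1, a tight junction gene before Il1rap, was lower (-5.05), and Ccdc50 after it was not past the threshold (-0.08). Sdhd, a subunit of mitochondrial complex II after Il18, was lower (-1.63). Psd4, after Il1rn, had at most 2 counts in Pdk4fl/fl and was at least 7.30-fold higher in Pdk4SMKO, with 60, 24 and 10 counts. Map4k4, before the receptor cluster, was higher (1.48). Numa1, which ends 117 bases from Il18bp, and Rnf121 were not past the threshold (0.31 and -0.51). Sirpa, the next tested gene after Il1a and Il1b, was higher (1.15), and Ckap2l before them was not past the threshold (-0.13). Spopl before Il1rn (-0.83) and Pts before Il18 (0.87) were not past the 2-fold threshold. Gm20319, whose span overlaps that of Il1rap, had at most 5 counts.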
